A study of Mus musculus with 70 samples.

Results

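The probes described here were all spots of a 2-colour cDNA microarray, the MPIP24k array, whose printed name begins with proteasome, ubiquitin or F-box only protein. This rule took 159 spots with 102 distinct names out of 22824 probes with 15191 names, and the brightest spot over all arrays stood for each name. Of the 102 names, 33 begin with proteasome, 57 with ubiquitin and 12 with F-box only protein. No measured difference entered the rule. The arrays compared mice bred for high (HAB) and for low (LAB) anxiety-related behaviour, 2 lines derived from outbred CD-1 mice. Brain tissue came from untreated (basal) males of generation 16 at 10 weeks of age, and 6 mice of a line were pooled for each brain region. The authors state that the mice had been tested on the elevated plus-maze and in the tail-suspension test, the latter a few days before death. The 7 regions were the hypothalamic paraventricular nucleus (PVN), the basolateral (BLA), central (CeA) and medial (MeA) amygdala, the nucleus accumbens (NAc), the anterior cingulate cortex (Cg) and the supraoptic nucleus (SON). Each region had 10 arrays that set the HAB pool against the LAB pool, 5 with HAB labelled in Cy3 and 5 with HAB labelled in Cy5. No unselected mice were on these arrays, and punches of frozen tissue were the source of the RNA.

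Cells mark proteins for removal with ubiquitin, a small protein that is made from precursor genes as repeats or fusions. An activating enzyme (E1) loads ubiquitin onto a conjugating enzyme (E2), a ligase (E3) selects the substrate, and deubiquitinases take ubiquitin off again. F-box proteins are the substrate receptors of the SCF ligases, which are built on a cullin. The 26S proteasome, a barrel-shaped 20S core with 19S caps that recognise and unfold the substrate, then degrades the tagged protein. In neurons this system turns over receptors and scaffolds of the synapse, and the ubiquitin-like proteins SUMO and NEDD8 are attached by parallel enzymes.

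All values below are log2 ratios of HAB over LAB signal, so that positive values mean more signal in HAB. The value of a region is the mean over both dye orientations. Because each region held 1 pool per line, its 10 arrays were technical replicates and differences within a region compare 2 pools. Fewer cells of a type and less RNA per cell cannot be told apart in such tissue. The median signal of a channel lay between 135 and 2480, against at most 940 for the median of the 1170 empty spots of a channel. A probe was called above the empty spots where its signal exceeded their median by more than 2 median absolute deviations on at least 35 of 70 arrays in either line. This held for 7089 of all probes and for 47 of the 102 names. Over all probes, the HAB/LAB ratios of arrays with opposite dye orientation were barely related (median correlation by region, -0.15 to 0.01). Vasopressin, a defining transcript of the PVN and SON, ranked at the 64.6th and 65.4th percentile of signal there, and at percentiles between 14.9 and 37.2 in the other regions. Oxytocin, the other magnocellular marker of the list, ranked at the 44.4th percentile in the PVN but at the 34.6th in the SON, below the BLA (37.5) and CeA (37.7). Both probes were dim, with at most 19 of 70 channels above the empty spots in a line.

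Over the 7 regions the members as a whole did not lean towards a line. Of the 102 members, 49 had a mean ratio above 0 and 53 below it, with a median of -0.01 against 0.00 for all probes. A single member, F-box only protein 3 (Fbxo3), passed the test over regions, a moderated test of the 7 region values fitted with limma and adjusted over all 22824 probes (adjusted p = 0.0278). That is 0.98% of the members, where 0.302% of all probes passed. Without that adjustment, 6 of 102 members and 1444 of 22824 probes had p under 0.05. The regions came from the same mice, and p-values over them therefore overstate the evidence for a difference of the lines. In the plot of all members by region, the bulk of the members lay within the range that held most probes of the array.

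**Figure D1:**
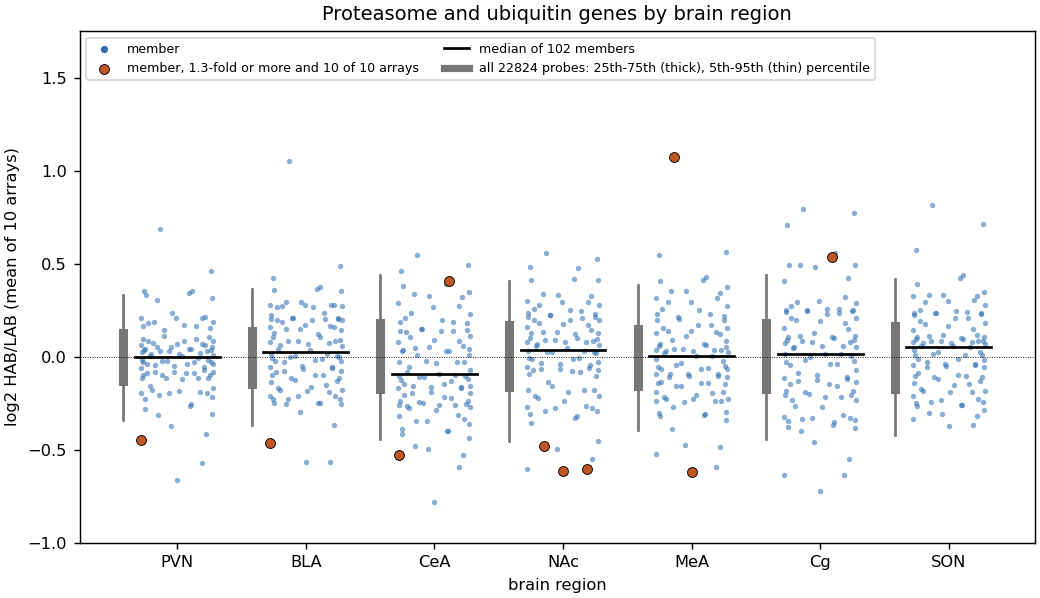
Mean log2 HAB/LAB of the 102 proteasome and ubiquitin members (y axis) in each brain region (x axis), with the median of the members as a black line. Grey bars give the 25th to 75th and the 5th to 95th percentile of all 22824 probes, and the larger orange points are the 10 member and region pairs that reached 1.3-fold in the same direction on 10 of 10 arrays.

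Fbxo3, an F-box protein that acts as the substrate receptor of an SCF ligase, was higher in HAB by 0.55 on the log2 scale (SE 0.116, n = 7 regions). Its signal was above the empty spots on 34 of 70 HAB channels and on 13 of 70 LAB channels, which kept it just outside the set of probes called above the empty spots. In the MeA all 10 arrays were higher in HAB, from 0.34 through a median of 1.05 to 2.15, with a mean of 1.07 (SD 0.52). The ratio was therefore above 0 in both dye orientations there, with means of 0.72 for HAB in Cy3 and 1.42 for HAB in Cy5.

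Elsewhere the arrays of Fbxo3 overlapped 0. In the Cg its ratios ran from -0.24 through a median of 0.81 to 1.65, and 9 of 10 arrays were higher in HAB. In the BLA they ran from -0.58 through 0.70 to 2.49, again with 9 of 10 arrays higher, but the LAB channel was above the empty spots on 0 of 10 arrays and the HAB channel on 3. The means were 0.79 in the Cg and 1.05 in the BLA, with a wider spread between arrays in the BLA (SD 0.99) than in the Cg (SD 0.70). Means of 0.46, 0.42 and 0.31 were obtained in the PVN, NAc and SON, and in the NAc the 2 dye orientations had opposite signs (1.02 and -0.18). The CeA went the other way, with 9 of 10 arrays lower in HAB and a mean of -0.25, at signals that were not above the empty spots in either line. Of 18 other settings, 8 kept Fbxo3 past the threshold, with ratios from 0.46 to 0.68 and adjusted p from 0.000552 to 0.241. Leaving out the MeA gave 0.46 (adjusted p = 0.241, limma) and leaving out the CeA 0.68 (adjusted p = 0.000552, limma). Leaving out PVN, BLA, Cg or SON also ended the call (adjusted p = 0.0542, 0.176, 0.184 and 0.0679), as did replicates 3 and 4 (0.0539 and 0.0639).

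**Figure D2:**
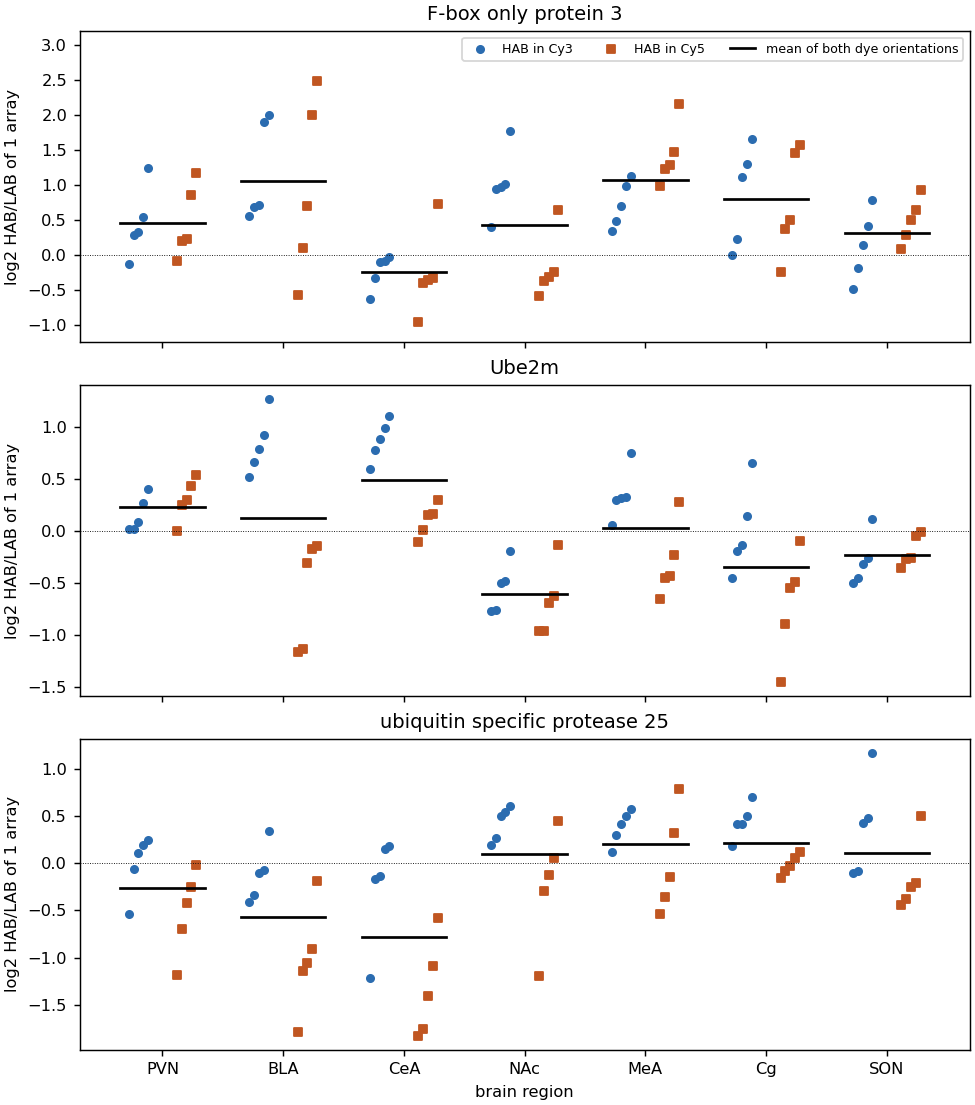
Log2 HAB/LAB of every array (y axis) in each brain region (x axis) for F-box only protein 3, Ube2m and ubiquitin specific protease 25. Circles are the 5 arrays with HAB in Cy3, squares the 5 with HAB in Cy5, and the line is the mean of both dye orientations. Fbxo3 is above 0 on all 10 MeA arrays and Ube2m below 0 on all 10 NAc arrays, while the CeA arrays of Usp25 reach from -1.82 to 0.19.

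The other 11 F-box names had ratios between -0.12 and 0.15 over the regions, and none passed. Fbxo5, known as an inhibitor of the anaphase promoting complex, had 0.15 (adjusted p = 0.844, limma) and was above 0 in 6 of 7 regions. Fbxo32, the muscle atrophy ligase atrogin-1, had a well detected probe (60 of 70 channels in each line) and a ratio of -0.07.

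Among the ubiquitin precursors, ubiquitin B (Ubb), a gene of tandem ubiquitin repeats, was well detected (68 channels of HAB and 69 of LAB) and had a ratio of 0.04 over the regions, with region means from -0.20 in the MeA to 0.23 in the SON. Ubiquitin genes share nearly the same coding repeat, and the probe sequences were not used here, so signal of the precursors on each other's probes cannot be told apart.

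Another name of this group, called Ube2m here, is less certain. It is printed on the array as a ubiquitin-related sequence, and RefSeq (GRCm38.p6) lists its former symbol under Ube2m, the conjugating enzyme of NEDD8. Its ratio over the regions was -0.04, but the regions differed. In the NAc the arrays ran from -0.96 through -0.66 to -0.13, all 10 below 0, with a mean of -0.61 (SD 0.29). In the CeA 9 of 10 arrays were above 0, with a mean of 0.49, which came mainly from the arrays with HAB in Cy3 (0.87, against 0.11 with HAB in Cy5). The Cg had a mean of -0.34 and the PVN of 0.23. Of its 2 other spots, neither had signal above the empty spots on more than 17 of 70 channels in a line, and their NAc means were 0.10 and -0.07. Probes of the oligodendrocyte genes Cnp and Mobp ran beside it, with CeA ratios of 0.69 and 0.72, NAc ratios of -1.36 and -1.21 and Cg ratios of -0.99 and -0.89. The other 4 oligodendrocyte markers of the list did not. In the CeA, NAc and Cg Mbp had -0.40, 0.46 and 0.64, Plp -0.16, 0.23 and 1.30, and the dim probes of Mog and Mag -0.10, 0.06 and -0.07 and -0.14, 0.30 and 0.48. Their part in the result was not tested.

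The proteasome subunits showed no difference over regions that passed the test. Among the 33 members 19 were above 0 and 14 below it, with a median of 0.02 and extremes of -0.19 and 0.19. By part of the complex, the medians were -0.06 for the 3 ATPases and 0.00 for the 12 non-ATPase subunits of the 19S cap, 0.01 for the 7 subunits of the alpha ring, 0.03 for the 8 of the beta ring and 0.04 for the 3 activators and interactors. The alpha ring, which gates entry to the core, was the best detected part of the complex, with 5 of 7 probes above the empty spots, and its ratios lay between -0.11 (Psma1) and 0.12 (Psma3). Of the beta ring, which carries the proteolytic sites, 2 of 8 probes were above the empty spots. Psmb6 had the smallest p of that ring (0.19, unadjusted p = 0.0303, adjusted p = 0.750 in limma), yet its signal exceeded the empty spots on 5 of 70 channels for HAB and 3 for LAB. Psmb4, with a better detected probe, had -0.16. Psmd2, a scaffold of the 19S base, had -0.19 (adjusted p = 0.777, limma) from a probe above the empty spots on 2 and 6 channels.

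Psmc3 and Psmc2, ATPases of the 19S base, had 0.08 and -0.07. Psmd5, an assembly chaperone of that base, had 0.16 (adjusted p = 0.831, limma). Psme1, an alpha subunit of the 11S activator, had 0.04, and Psmc3ip, named for its binding to an ATPase of the base and better known from meiotic recombination, had 0.09.

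The enzymes of the cascade likewise had ratios near 0 over the regions. The 4 activating enzymes lay between -0.04 (Uba2) and 0.16 (Sae1), which together form the E1 of SUMO. The 17 conjugating enzymes and variants lay between -0.13 and 0.11 (Ube2a), 8 above 0 and 9 below it. The 8 ligases and their partners lay between -0.14 (Rnf144a) and 0.11 (Ube3a, the ligase of the Angelman locus), with 4 on each side of 0.

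The 16 deubiquitinases held the widest spread among the enzymes, from -0.14 (Usp25) to 0.25 (Usp20). Usp20 had an unadjusted p of 0.0164 and Usp9x, the X-linked deubiquitinase, of 0.0426, with adjusted p of 0.647 and 0.767 in limma. Both probes were dim, Usp20 exceeding the empty spots on 10 channels for HAB and 7 for LAB, and its SON arrays ran from -1.29 to 2.26. Ubiquitin carboxy-terminal hydrolase L1 (Uchl1), an abundant neuronal deubiquitinase, had a ratio of 0.04 (SE 0.092). In the MeA its 10 arrays were all above 0, from 0.10 to 0.75 with a mean of 0.35, below the 1.3-fold that was counted. In the SON they ran from -1.92 to 0.57, and in the BLA neither line was above the empty spots on any array.

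The 8 ubiquitin-like and ubiquitin-binding proteins lay between -0.12 and 0.16. Ubl3, a membrane-anchored ubiquitin-like protein, was the highest of them, at 0.16 (adjusted p = 0.844, limma), and Ubap2 had 0.14 from a dim probe. In all, 1 of the 47 members above the empty spots had an unadjusted p under 0.05, against 480 of the 7089 probes above the empty spots.

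Within a region, a member was counted where its mean ratio reached 1.3-fold and all 10 arrays had the same direction. This gave 10 of 714 member and region pairs, 1.4%, against 0.956% of the pairs of all probes, and the pairs came from 9 members. By region the members counted were 1 in the PVN (0.98%, against 0.736% of all probes), 1 in the BLA (0.98%, against 0.223%), 2 in the CeA (1.96%, against 1.01%), 3 in the NAc (2.94%, against 1.99%), 2 in the MeA (1.96%, against 0.587%), 1 in the Cg (0.98%, against 1.59%) and 0 in the SON (against 0.556%). These shares rest on at most 3 members a region. The 3 in the NAc were lower in HAB, as the majority of the NAc probes counted were (307 of 454).

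The pairs of Fbxo3 and Ube2m are given above. Ubiquitin D (Ubd), also called FAT10, is a ubiquitin-like modifier induced by cytokines. Its NAc arrays ran from -1.65 through -0.59 to -0.07, with a mean of -0.61 (SD 0.47), and HAB and LAB signals were above the empty spots on 5 and 4 of 10 arrays. Ubl4a, a ubiquitin-like protein that helps to hand tail-anchored proteins to the membrane, was also lower in HAB on all NAc arrays, from -1.20 to just below 0, with a mean of -0.48 (SD 0.35). Its highest array was practically 0.

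In the CeA the ATPase Psmc2 was lower in HAB on all arrays, from -0.75 through -0.53 to -0.27, with a mean of -0.53 (SD 0.18). Its second spot had -0.22 there. Ube2a, a RAD6-type conjugating enzyme, was higher in HAB in the CeA, from 0.03 through 0.30 to 1.06, with a mean of 0.41 (SD 0.34). The 2 dye orientations of Ube2a differed (0.65 and 0.17), whereas those of Psmc2 were alike (-0.47 and -0.59).

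Ubl3 was higher in HAB on all Cg arrays, from 0.29 through 0.46 to 0.91, with a mean of 0.54 (SD 0.20) and alike in both dye orientations (0.51 and 0.56). Its second spot, also above the empty spots, had -0.03 in the Cg. Psmd1, the largest subunit of the 19S cap, was lower in HAB on all BLA arrays, from -1.72 to -0.10, but neither line had signal above the empty spots on any of them. In the BLA the choroid plexus markers Ttr and Enpp2 were lower in HAB by far more, at -3.22 and -1.49, while the third matched marker of that list, Cldn2, had -0.04 there from a well detected probe (52 channels of HAB and 47 of LAB). The part of these markers in the member ratios of that region was not tested.

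With limma over the 10 arrays of a region, which compares the 2 pools, 2 of the 714 pairs passed, against 0.364% of all pairs. They were Fbxo3 in the MeA (adjusted p = 0.0104) and Ube2m in the NAc (adjusted p = 0.0445). Neither passed when replicate numbers were entered as a block, nor when the arrays of any replicate number were left out. Without adjustment, p was under 0.05 for 13 of the 102 members in the PVN (against 10.5% of all probes), 7 in the BLA (against 6.87%), 14 in the CeA (against 12.1%), 16 in the NAc (against 12.1%), 11 in the MeA (against 7.47%), 16 in the Cg (against 11%) and 4 in the SON (against 7.3%).

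More members passed a test of differences between regions. A limma F-test over 70 arrays asked whether the HAB/LAB ratio of a member was unequal over the 7 regions. The arrays of a region were technical replicates, so this test compares the pools of the regions. Its p-values, here and below, rest on the spread between arrays and do not measure variation between mice. The F-test called 11 of 102 members (10.8%), where it called 6.1% of all probes. Among the members above the empty spots it called 9 of 47 (19.1%), against 17.3% of all probes above the empty spots, so the share among well detected members was close to that background. They included Fbxo3, Ube2m, Usp25, Psmd1, Uba3, Ube2v2, Ube2d1, Ubl3 and Ube2b.

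**Figure D3:**
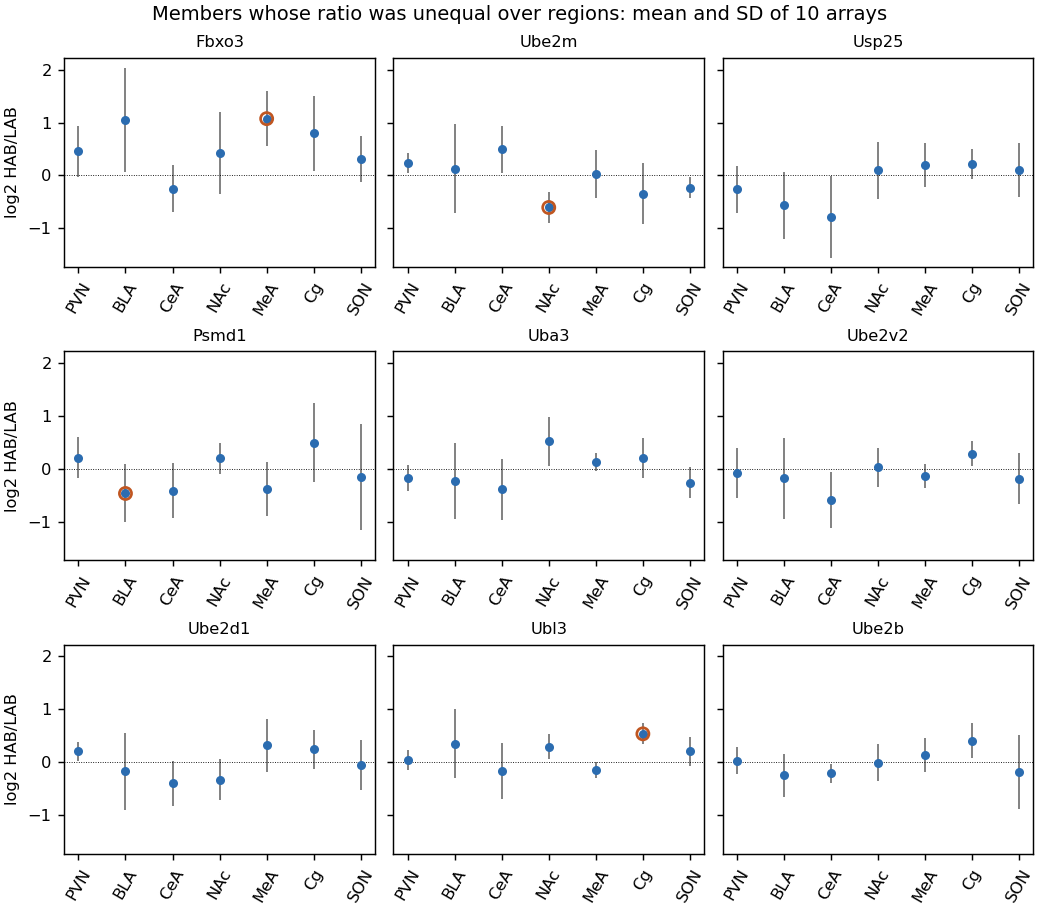
Log2 HAB/LAB (y axis, mean and SD of 10 arrays) in each brain region (x axis) for Fbxo3, Ube2m, Usp25, Psmd1, Uba3, Ube2v2, Ube2d1, Ubl3 and Ube2b, which passed the F-test between regions, in order of the range of their means. Orange rings mark regions where the member reached 1.3-fold on 10 of 10 arrays in the same direction, and Usp25 has the lowest mean, -0.78 in the CeA.

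Ube2m and the deubiquitinase Usp25 had the smallest adjusted p (6.6e-06 and 0.000158), and both passed under all 15 other settings. Usp25 had a mean of -0.78 in the CeA (from -1.82 through -0.83 to 0.19) and of -0.57 in the BLA (from -1.79 through -0.37 to 0.34). The CeA arrays overlapped 0, and the dye orientations differed, at -0.24 where HAB carried Cy3 and -1.33 where it carried Cy5. In the NAc, MeA, Cg and SON its means lay between 0.10 and 0.21. In every region the mean ratio of Usp25 was higher with HAB in Cy3 than with HAB in Cy5. The dye orientations had opposite signs in the NAc, Cg and SON. The array held 2 further Usp25 spots, and both were also lowest in the CeA, at -0.58 and -0.70. Their own F-tests gave adjusted p of 0.0532 and 0.0508.

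Uba3, the catalytic subunit of the E1 of NEDD8 (named ubiquitin-activating enzyme E1C on the array), ran from -0.39 in the CeA to 0.52 in the NAc (adjusted p = 0.000905, limma). Its NAc arrays ran from -0.47 through 0.57 to 1.06, 9 of 10 above 0. The second Uba3 spot, detected on 49 channels of HAB and 57 of LAB, gave a CeA ratio of -0.25 and a NAc ratio of 0.43. The 2 spots had the same sign in 6 of 7 regions.

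**Figure D4:**
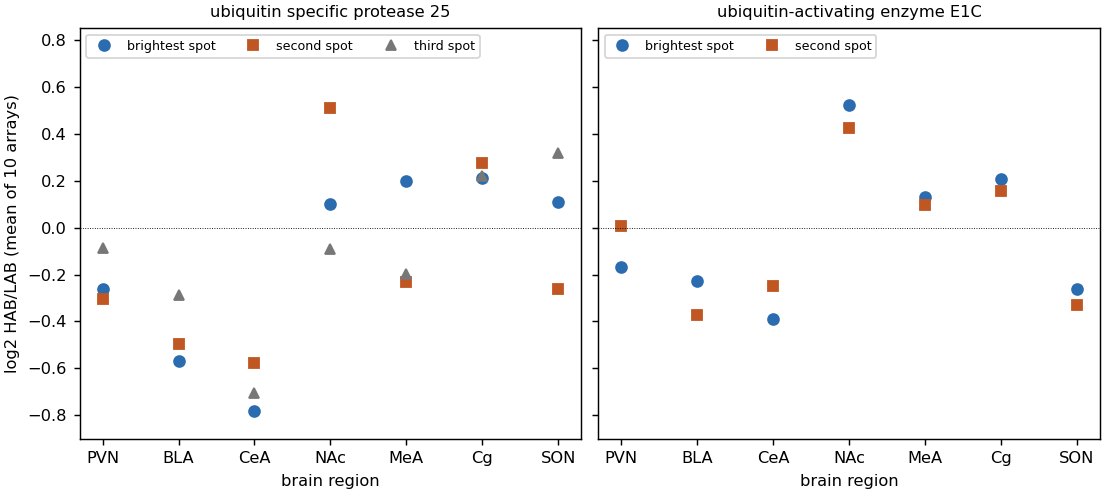
Mean log2 HAB/LAB of 10 arrays (y axis) by brain region (x axis) for each spot of ubiquitin specific protease 25 (3 spots) and ubiquitin-activating enzyme E1C (2 spots). All 3 Usp25 spots are lowest in the CeA, from -0.78 to -0.58, and both E1C spots are highest in the NAc, at 0.52 and 0.43.

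Such likeness between spots was not general. The members had 57 spots besides the brightest of their name, and over 399 spot and region pairs the sign matched that of the brightest spot in 205 (51.4%). Where both spots were above the empty spots it matched in 42 of 77 (54.5%). For Ubl3, the second spot had -0.60 in the CeA and -0.33 in the BLA, where the brightest had -0.16 and 0.35.

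Ube2v2, a ubiquitin E2 variant that works with Ube2n on lysine 63 chains, had its lowest ratio in the CeA, at -0.59. There 9 of 10 arrays were below 0 (-1.33 to 0.64), and its highest mean was 0.29 in the Cg (adjusted p = 0.00241, limma F-test). The CeA arrays with HAB in Cy5 were lower, at -0.96, than those where HAB carried Cy3, at -0.22.

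The conjugating enzyme Ube2d1 ran from -0.40 in the CeA to 0.32 in the MeA, and the RAD6-type Ube2b from -0.25 in the BLA to 0.41 in the Cg (adjusted p = 0.0314 and 0.0462). Psmd1 ran from -0.47 in the BLA to 0.50 in the Cg (adjusted p = 0.0318), from a dim probe (21 channels of HAB and 20 of LAB). These calls were the least stable, as Ube2b passed under 2 of 15 other settings, Psmd1 under 5 of 14 and Ube2d1 under 6 of 15. Uba3 and Ube2v2 each passed under 12 of 15, Fbxo3 (adjusted p = 0.00296) under 13 of 14 and Ubl3 (adjusted p = 0.0156) under 8 of 15.

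The lowest of these values lay mostly in the CeA. Of the 11 members past the F-test, 7 had their lowest ratio there, as did 42.5% of the 1392 probes past the F-test on the whole array. The median of all 102 members in the CeA was -0.10 with 60 below 0, against 0.01 for all probes and -0.06 for those above the empty spots. In the other regions the members' medians lay between 0.00 and 0.05. Without the CeA the F-test called 4 members, among them Ube2m, Usp25 and Uba3. No share of all probes was computed without the CeA. Of the CeA arrays, 2 with HAB in Cy3 were scanned on 1 day. The 3 others with HAB in Cy3 and the 5 with HAB in Cy5 were scanned on another. Of the Cg arrays, 1 with HAB in Cy3 and the 5 with HAB in Cy5 were scanned on 1 day. The 4 others with HAB in Cy3 were scanned on another day. The part of the scanning day was not tested in either region.

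Other genes of the pathway were taken from a list of name patterns, which gave 62 names (cullins and SCF parts, other F-box proteins, SUMO, NEDD8 and the COP9 signalosome, the anaphase promoting complex, further ligases, ubiquilins, and autophagy or delivery factors). Over the regions 39 were above 0 and 23 below it, with a median of 0.03. A single gene of the 62 passed the test over regions, which called 0.302% of all probes. This gene was SMT3 homolog 2, a SUMO gene, at 1.45 (SE 0.110, adjusted p = 4.6e-09 in limma). It was above 0 in 7 of 7 regions, from 0.82 in the PVN to 1.99 in the MeA, and on at least 9 of 10 arrays in each. It exceeded the empty spots on 52 channels of HAB but 20 of LAB. In the CeA it did so on 2 HAB and 1 LAB arrays of 10, in the BLA on 6 and 1, and in the NAc on 9 and 0. The best detected region was the PVN, with 10 and 7. SMT3 homolog 2 passed under all 19 other settings, from 0.75 to 1.60. The lowest of these was the mean with its second spot, which had 0.06 alone, so the difference was seen at 1 of its 2 spots. SUMO genes are close in sequence, and signal of their transcripts on each other's probes was not tested.

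The F-test called 11 of these 62 genes (17.7%), against 6.1% of all probes. All 11 were among the 36 genes above the empty spots (30.6%), where 17.3% of such probes were called. The lowest ratio lay in the CeA for 8 of the 11, as it did for 42.5% of all probes called. These shares describe a list and were not tested. The genes named here were chosen after their values were seen. Among the 7 cullin and SCF genes, the scaffolds cullin 1, cullin 3, cullin 4A and cullin 4B passed (adjusted p = 0.00523, 0.000208, 0.0108 and 0.000241), a subgroup singled out after its values were seen, so that its share is no evidence beyond the single genes. All 4 were lowest in the CeA, the region where called probes of the whole array were most often lowest, at -0.44, -0.50, -0.57 and -0.60, and their Cg ratios were 0.46, 0.30, 0.57 and 0.40. Cullin 3 had 9 of 10 CeA arrays below 0, and cullin 4B 9 of 10 below 0 there but 10 of 10 above 0 in the MeA. In the CeA, cullin 4B exceeded the empty spots on 1 of 10 HAB and 6 of 10 LAB arrays. Cullin 1 exceeded them on 5 and 8, cullin 4A on 5 and 7, and cullin 3 on 9 and 9. Other spots of cullin 3 and cullin 4B did not pass the F-test (lowest adjusted p = 0.770 and 0.170). As with Usp25, the CeA ratios of cullin 3 and cullin 4B were lower with HAB in Cy5 (-0.80 and -0.92) than in Cy3 (-0.20 and -0.27), while cullin 1 had -0.32 and -0.56. Without the CeA 2 of the cullins still passed, and without the Cg also 2.

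Nedd8, the modifier that activates cullins, passed as well (adjusted p = 6.8e-05). It was lowest in the CeA, at -0.53 with 10 of 10 arrays below 0 (-1.15 through -0.42 to -0.05), and highest in the SON, at 0.55 with 9 of 10 above 0. Its activating enzyme Uba3 was on the same side of 0 in 2 of 7 regions, the CeA and NAc. It was on the other side in the SON (-0.26), the Cg (0.21, against -0.38 for Nedd8), the PVN (-0.17, against 0.09), the BLA (-0.23, against 0.01) and the MeA (0.13, against -0.13). The second spot of Nedd8 gave an F-test adjusted p of 0.887. The other genes past the F-test were Nedd4-like, PIAS gamma, hect domain and RLD 3, von Hippel-Lindau binding protein 1, ubiquilin 2 and SMT3 homolog 2. Name patterns alone placed Nedd4-like with NEDD8 and von Hippel-Lindau binding protein 1 with the further ligases.

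**Figure D5:**
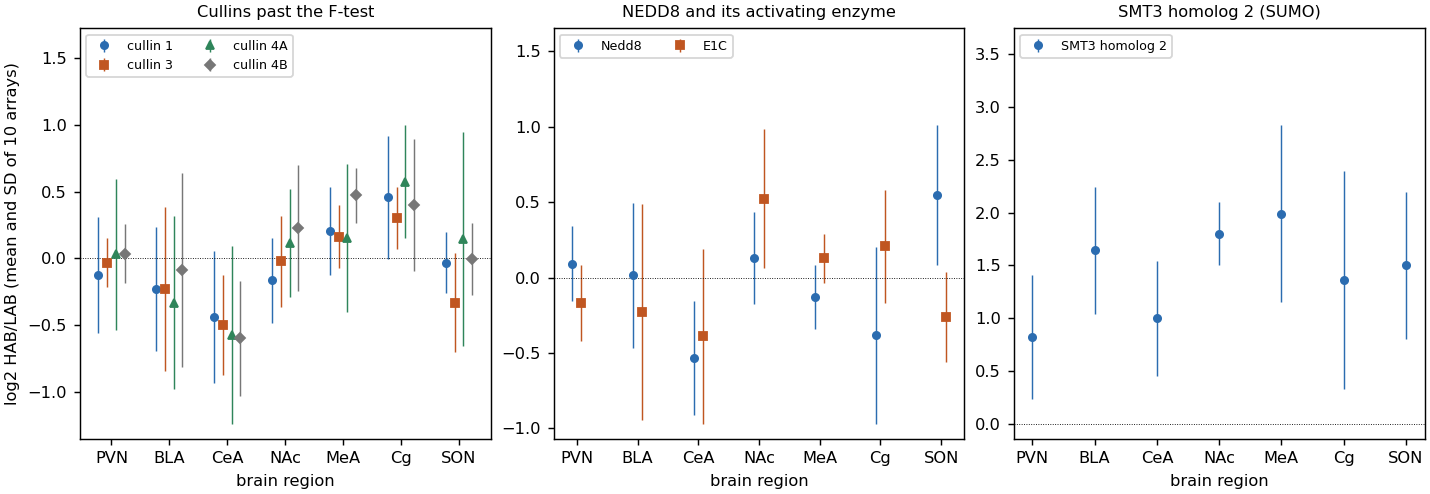
Log2 HAB/LAB (y axis, mean and SD of 10 arrays) by brain region (x axis) for the 4 cullins past the F-test, for Nedd8 with its activating enzyme E1C, and for SMT3 homolog 2. The y axes of the panels differ. The cullins are lowest in the CeA, Nedd8 is lowest in the CeA and highest in the SON, and SMT3 homolog 2 has a mean above 0 in all 7 regions.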

How the data were processed

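RNA of pooled mice was amplified in 2 rounds and hybridised to 70 two-colour MPIP24k arrays, each with 24192 spots, 1368 of them controls or empty spots. The authors deposited scanner intensity values for both channels of every spot, quantified by the fixed circle method without background subtraction. They also deposited a table of log2 ratios, normalized with a LOESS smooth over 40% of the values and reduced to 8454 to 18596 values per region. Its columns had medians of -0.01 to 0.01 and correlated with the ratios computed here at 0.86 to 0.97 in the HAB over LAB direction. It served as an alternative. It has no error columns, and no genome build of the probes is given in the sources used here.

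From the intensity values, log2 ratios were computed with limma 3.58.1 in R 4.3.3 by normexp background correction (offset 50), loess (span 0.4, controls at weight 0) and subtraction of the median of each of the 48 print-tip blocks. Ratios were turned to HAB over LAB by the dyes in the labels, and the means of both dye orientations were averaged per region. No array had over 17 saturated spots, none of them of a member. The number of arrays limits the precision.

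The line difference over regions was the limma intercept over the 7 region values. Within a region, probes were counted at 1.3-fold or more with 10 of 10 arrays in the same direction, or tested with limma over 10 arrays with a dye term. The F-test between regions used 70 arrays with a dye term per region. P-values were adjusted by Benjamini-Hochberg over all probes with a threshold of 0.05. The steps were also run on simulated arrays with independent noise. These had no shared mice or pools, so they do not bear on how far such sharing affects the p-values.

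Members were found by name, and the brightest spot stood for a name. All 102 names were matched to RefSeq symbols (GRCm38.p6), 17 of them through a synonym. Names and roles were used from that table, and no sequences or positions. Genes were named where they passed a test over regions or the F-test (at most 10 by range), were counted in a region (2 per direction), had the 2 smallest p of their role group, or were textbook neuronal members such as Ubb and Uchl1. Some members enter the counts but are not reported here by name. Of the other pathway genes, that rule names SMT3 homolog 2. The members and lists were chosen with earlier results of these data known. Alternatives changed the background correction, normalization, filter, table, dye orientation, threshold, probe, regions, replicates, replicate block and scanning day.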

Additional observations from a re-analysis of the deposited data

Results flagged for a closer look

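Of 54 groups of 5 arrays (same region and dye orientation) examined for the members above, 7 had an array far from the other 4, where chance gives about 1 in 20. In the NAc with HAB in Cy5, Fbxo3 had 0.65 on array 5 against -0.59 to -0.24 on the others. Psmd1 had -0.62 on array 5 of the BLA with HAB in Cy3 (others -0.16 to -0.10) and -1.06 on array 4 of the Cg with HAB in Cy5 (others 0.29 to 0.43). Ube2v2 had 0.64 on array 4 of the CeA with HAB in Cy3 (others -0.58 to -0.23) and -0.25 on array 2 of the Cg with HAB in Cy5 (others 0.28 to 0.47). Ubl3 had -0.95 on array 4 of the CeA with HAB in Cy5 (others -0.56 to -0.41). Usp25 had -1.22 on array 3 of the CeA with HAB in Cy3 (others -0.16 to 0.19).

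By the limma F-test over 70 arrays, which compares the pools of the regions, the ratio was unequal over regions for the following members. The adjusted p was 6.6e-06 for Ube2m, 0.000158 for Usp25, 0.000905 for Uba3, 0.00241 for Ube2v2, 0.00296 for Fbxo3, 0.0156 for Ubl3, 0.0314 for Ube2d1, 0.0318 for Psmd1 and 0.0462 for Ube2b.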

How the results depend on the processing

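Counts over the members moved as follows. The test over regions, which called 1 member (Fbxo3), called 0 with median centring alone, with only probes above the empty spots (47 members tested), with the authors' log2 table (30 tested), with the mean of all probes of a name, and without PVN, BLA, MeA, Cg or SON, and 0 to 1 without each replicate number. Fbxo3 itself was not among the members tested with only probes above the empty spots or with the authors' table. With HAB in Cy5 alone the 1 member called was Usp21, not Fbxo3. The 10 pairs counted within regions became 7 with loess alone, 5 of them among the 10. Of the 10, 6 had a value in the authors' table, where 6 pairs were counted, 4 of them among the 10. The count was 4 at 1.5-fold, 30 with 9 of 10 arrays and 14 to 17 without each replicate number. Without a replicate number fewer arrays had to share a direction, so the rule was looser there. No share of all probes was computed under any of these alternatives. All of the 10 pairs with a value kept their sign in these settings. The 2 pairs passed by limma within a region became 4 without background correction and 0 without each replicate number. They became 21 with only probes above the empty spots in the region itself, where fewer probes were tested. No share of all probes was computed under that filter, so this rise cannot be set against one. The scanning day could be entered as a block in the BLA, the single region scanned on 2 days that each held both dye orientations. Limma called 0 members there with and without that block (9 and 7 at an unadjusted p under 0.05), so the block bears on no call. The F-test called 11 members, and 5 to 9 without each replicate number. With only probes above the empty spots (47 members tested) it called 14, 9 of them among the 11, again with no share of all probes computed. Leaving out regions (chosen after seeing the data), it called 4 without CeA, 7 without NAc, 6 without Cg and 8 to 12 without the others. No share of all probes was computed without a region or a replicate number, so these counts cannot be set against one. The cause of these changes was not tested. With HAB in Cy3 alone 63 of 102 members kept the sign of their ratio over regions, with HAB in Cy5 alone 72, and in the other settings with all members 86 to 99.

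Replicate numbers did not pair the arrays. Over 35 pairs of same-numbered arrays of opposite dye orientation, their deviations correlated at -0.05 to 0.04. With the replicate block, the limma test within regions called 0 of 714 pairs and the F-test 10 members, losing Ube2b.

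Limits are the single pool per line and region, the 55 of 102 members whose probe was not above the empty spots, the weak relation between dye orientations, and regions taken from the same mice.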
